A study of Mus musculus with 6 samples.

Results

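The interleukin-6 (IL-6) family axis was described by 10 genes of the deposited expression table, chosen by symbol: the ligands Il6, Lif, Il11 and Clcf1, the receptor chains Il6st, Lifr and Osmr, the transcription factor Stat3, its feedback inhibitor Socs3, and the growth factor Csf1. All 10 were among the 16880 genes listed. The libraries were made from ATDC5, a mouse line of chondrogenic cells, exposed either to 10 ng/mL interleukin-1β (IL group, n = 3) or to 10 ng/mL IL-1β together with 10 μM NP-G2-044 (ILN group, n = 3), for 24 h according to the methods. NP-G2-044 inhibits fascin, the actin-bundling protein that Fscn1 encodes. The sample titles name NP-G2-044 and the treatment label of the same samples names NP-G2-047. All 6 libraries therefore carry IL-1β, and no unstimulated sample was analysed here. Every difference below compares IL-1β plus the inhibitor with IL-1β. The sequencing methods list DMSO as a separate treatment and do not say whether the IL group also received it. The methods describe the cells as chondrocytes and the replicates as biological.

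The IL-6 family cytokines share the signalling chain gp130, encoded by Il6st. IL-6 and IL-11 each bind a private receptor (Il6ra, Il11ra1) and then pair gp130 with itself, whereas leukemia inhibitory factor (Lif) pairs gp130 with the LIF receptor (Lifr), mouse oncostatin M pairs it mainly with Osmr, and the Clcf1 product uses the ciliary neurotrophic factor receptor (Cntfr) with gp130 and Lifr. JAK kinases bound to these chains phosphorylate STAT3, which then induces Socs3, whose product binds gp130 and shuts the signal down. In joints, IL-1β is known as an inducer of IL-6 and LIF in cartilage and synovial cells. Csf1 is not of this family: it encodes the macrophage growth factor that acts on the receptor tyrosine kinase Csf1r.

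The IL libraries held 16615831 to 16878162 reads and the ILN libraries 17529836 to 17735850. Of the targeted protein's gene, Fscn1, the mean level was 616.2 ± 9.46 TPM (TPM, a library-scaled level per transcript length; SD, n = 3) in IL and 252.4 ± 2.46 TPM (SD, n = 3) with the inhibitor. The inhibitor acts on the protein, so this does not check the labels. The chondrocyte label rested on few transcripts: 7 of 12 listed markers were in the table. They summed to 12.0 to 12.8 TPM in IL and 15.5 to 15.8 TPM with the inhibitor, but did not move together. Col2a1, the main cartilage collagen gene, was at 0.217 TPM and 0.04 TPM. Sox9, the chondrogenic transcription factor, was at 6.44 TPM and 11.4 TPM, and the marker Col11a2 at 5.01 TPM and 3.43 TPM. The 8 fibroblast markers summed to 1138.6 to 1184.6 TPM and 357.0 to 373.3 TPM, almost all of it Col1a2. Of the 6 that could be tested, 5 were lower with the inhibitor by adjusted p (test described below), beside 39.8% of all tested genes. Pdgfra went up from 2.36 to 8.69 TPM. Of 9 macrophage markers 7 were listed, summing to 23.8 to 24.7 TPM and 128.7 to 140.0 TPM, but the 2 that could be tested moved in opposite directions: Cd68 went from 12.4 to 129.9 TPM and Cd14 from 11.4 to 4.89 TPM. Ptprc (CD45) had no read in any library, which allows up to 3 reads in each. Endothelial markers summed to at most 0.55 TPM. The part of these marker differences in the results below was not tested. In bulk RNA, fewer cells of a type and less RNA per cell cannot be told apart.

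Expression was compared with edgeR's quasi-likelihood test on the read counts, with Benjamini-Hochberg adjustment over the 11983 genes that passed a filter on low counts. A gene was called when its adjusted p was below 0.05 and its log2 fold change (log2FC, ILN over IL) was above 1 in size. Of all tested genes, 80% had an adjusted p below 0.05, so that call alone says little about a gene, and 16.6% passed both cutoffs, 6.48% as higher and 10.1% as lower with the inhibitor. Of the 10 members, 8 passed the filter and 5 of these passed both cutoffs: Socs3, Il6st, Lifr and Il6 were lower and Lif was higher. The median log2 fold change of the 8 was −0.69, beside 0.0018 over all tested genes. Stat3 fell by 0.20 on the log2 scale, Csf1 and Clcf1 were not called, and Il11 and Osmr had too few reads for the filter.

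**Figure D1:**
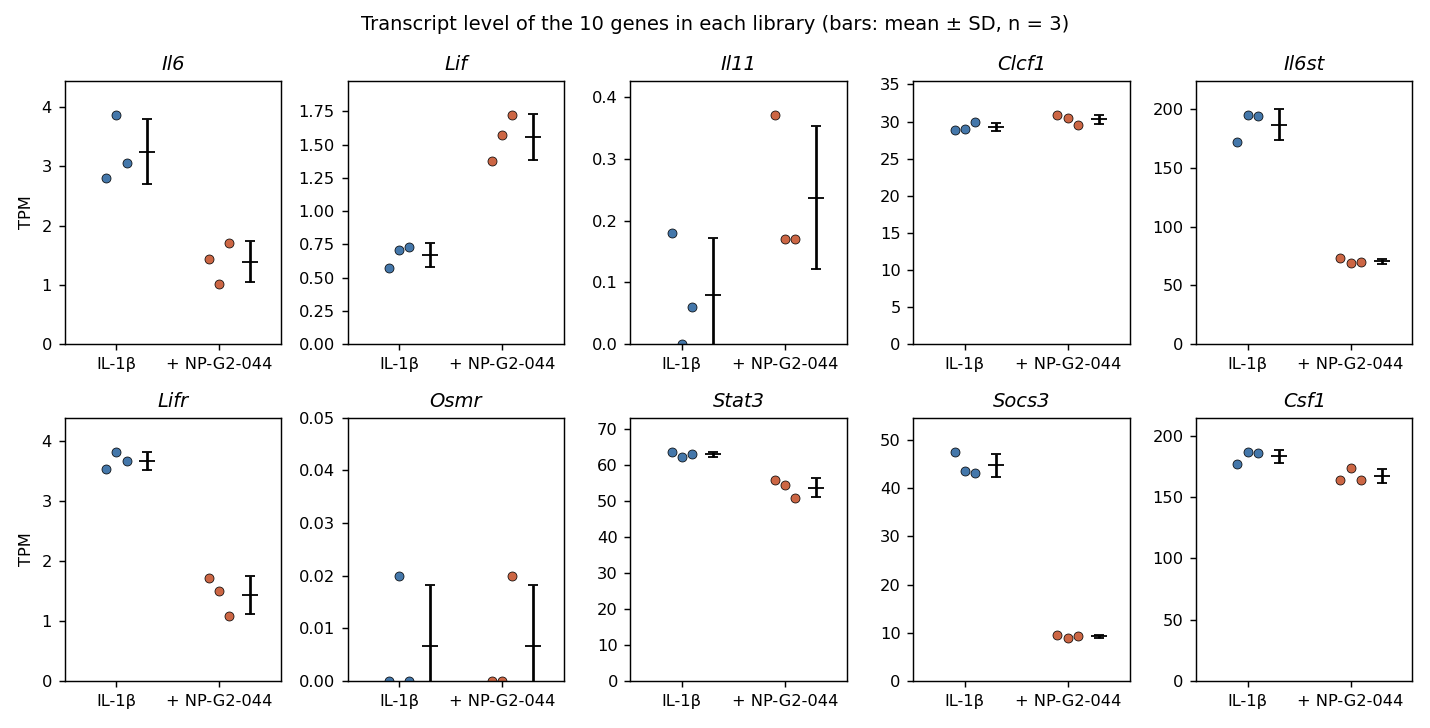
Transcript level in TPM (y axis, from 0, own scale in each panel) of the 10 genes in each of 3 IL libraries (blue) and 3 ILN libraries (orange). The bar beside each group is the mean ± SD. The groups stand apart for Il6, Lif, Il6st, Lifr, Stat3, Socs3 and Csf1 and overlap for Il11, Clcf1 and Osmr.

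Among the receptor chains, Il6st encodes gp130, the subunit shared by the cytokines of the IL-6 family described here. It was at 171.8, 194.65 and 193.9 TPM in the IL libraries and at 72.96, 69.05 and 69.57 TPM in the ILN libraries. All 3 inhibitor-treated libraries lay far below all IL libraries. A lack of overlap between the groups, by any distance and in either direction, was seen for 79.4% of tested genes. The counts behind these values were 9555, 10506 and 10698 reads against 4244, 4108 and 4146 reads, so counting error is small. The level was 2.59-fold lower with the inhibitor, or −1.37 ± 0.0335 (log2FC ± SE; edgeR adjusted p = 3.12e-27). Only 6.68% of the tested genes had a more negative log2 fold change. Il6st lies on the forward strand of chromosome 13 (GRCm38, 112464070 to 112510086).

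Lifr, the partner chain for LIF, was expressed at a far lower level. It was at 3.53, 3.82 and 3.67 TPM in the IL group and at 1.71, 1.5 and 1.08 TPM with ILN, again without overlap. The reads were 289, 299 and 260 against 142, 124 and 119, or −1.21 ± 0.0934 (log2FC ± SE; edgeR adjusted p = 4.8e-17), and −0.95 on the log2(TPM + 1) scale, just inside the cutoff on size. On the TPM scale Il6st exceeded Lifr by 48.7, 51.0 and 52.8 times in the IL libraries and by 42.7, 46.0 and 64.4 times in the others. The log2 ratio of Lifr to Il6st differed between the groups by 0.017 (standard error 0.186, exact two-sided permutation test p = 1, where 3 against 3 libraries can reach no less than 0.1), and from CPM in place of TPM it differed by 0.157 (exact permutation p = 0.3), so neither scale showed a shift beyond the spread of the libraries. Lifr lies on the forward strand of chromosome 15 (7090614 to 7197489).

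Osmr, the chain that mouse oncostatin M mainly uses, was nearly absent. It had 1 read in 1 library of each group and no read in the remaining 4, where a count of 0 allows up to 3 reads. The gene stands on the reverse strand of chromosome 15 (6813577 to 6874969), beside Lifr. No fold change is given for it, and ratios of Osmr to the other chains were not computed. Osm, the gene of its ligand, was not analysed here.

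The private receptor chains of the family, which are not members, were read for comparison. Il6ra, which confers binding of IL-6, was at 11.04, 10.08 and 11.17 TPM in the IL group and at 2.73, 2.16 and 2.16 TPM with the inhibitor. That is 4.48-fold lower, or −2.16 ± 0.0977 (log2FC ± SE; edgeR adjusted p = 1.2e-26), a larger fall than that of Il6st, although the difference between both falls was not tested. Exons of Il6ra overlap those of an opposite-strand gene model over 242 bases. Il11ra1, the IL-11 receptor, went from 4.52 ± 0.416 to 2.19 ± 0.477 TPM (mean ± SD of 3 libraries), or −1.02 ± 0.172 (log2FC ± SE; edgeR adjusted p = 5.48e-07). Cntfr had 16 reads over the IL libraries and 20 over the others, and Il27ra had 31 and 9, both below the filter.

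Of the 12 genes listed as other family ligands and receptor chains, 11 were in the table and 4 could be tested. Il6ra and Il11ra1 were lower past both cutoffs, beside 10.1% of all tested genes, Il11ra1 only just at −1.02. None of the 4 was higher in edgeR's test, by adjusted or unadjusted p, beside 40.2% of all tested genes higher by adjusted p. Cntf had a log2FC of 0.11 (edgeR adjusted p = 0.65).

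**Figure D2:**
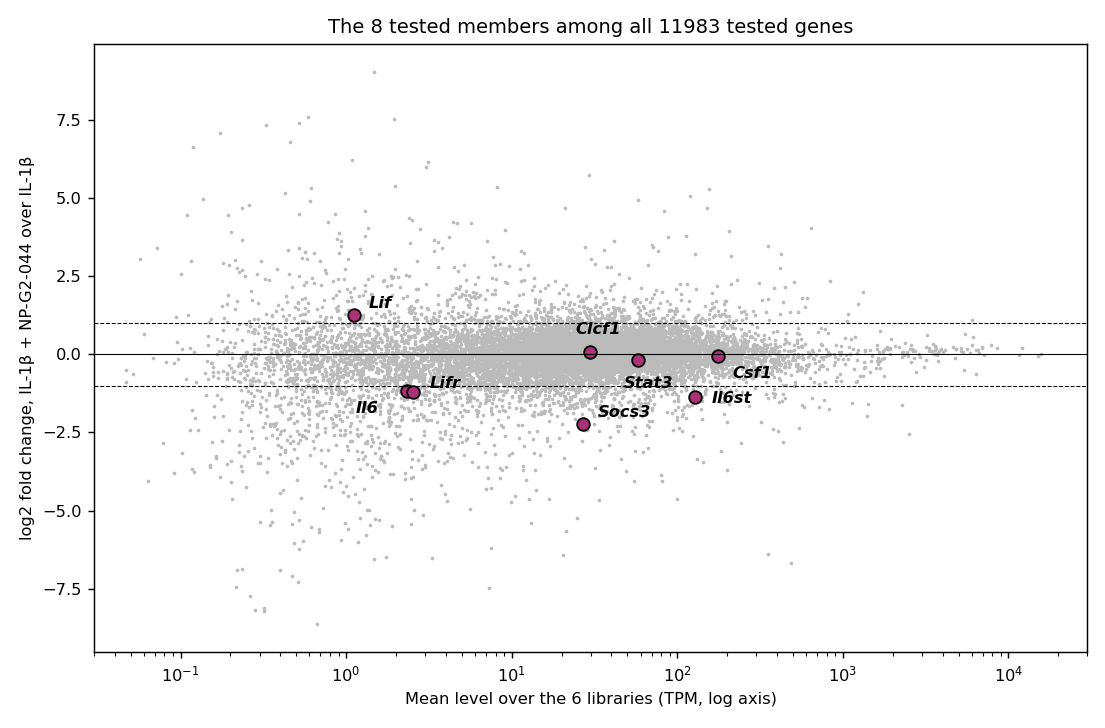
Each grey point is one of the 11983 tested genes, with its mean level over 6 libraries in TPM (x axis, log scale) and its log2 fold change, ILN over IL (y axis). Purple points are the 8 tested members and dashed lines the cutoffs at −1 and 1. Socs3, Il6st, Lifr and Il6 lie below the lower line, Lif lies above the upper line, and Clcf1, Stat3 and Csf1 lie near 0.

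The ligands did not move together. Il6 encodes the founding cytokine of the family. It was at 2.81, 3.86 and 3.06 TPM in the IL group and at 1.44, 1.02 and 1.71 TPM with the inhibitor, from 26, 35 and 28 reads against 14, 10 and 17. Every inhibitor-treated library was lower than every IL library. Its log2FC was −1.18 ± 0.265 (SE; edgeR adjusted p = 7.57e-05), and the ratio of pooled reads scaled by library totals, IL over ILN, was 2.28 with an exact 95% Clopper-Pearson interval of 1.56 to 3.39 that covers counting error only. Without replicate 2 of the inhibitor-treated libraries the log2 fold change was −0.997, under the cutoff on size. Il6 was not called on the log2(TPM + 1) scale either, at −0.83, nor against a fold change of 2 (edgeR adjusted p = 0.641).

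Lif, the cytokine that needs Lifr, moved the opposite way. It was at 0.57, 0.71 and 0.73 TPM in the IL group and at 1.38, 1.57 and 1.72 TPM with ILN. The 23, 29 and 29 reads of the IL libraries stood below the 60, 69 and 76 reads of the others. Lif was 2.40-fold higher with the inhibitor, or 1.26 ± 0.183 (log2FC ± SE; edgeR adjusted p = 1.8e-08), and 4.09% of tested genes had a larger rise. Leaving out each library gave 1.16 to 1.35, but Lif was not called on the log2(TPM + 1) scale, at 0.61, nor against a fold change of 2 (edgeR adjusted p = 0.186). The ratio of pooled reads had an exact 95% interval of 1.85 to 3.15. Lif thus rose while the transcript of its own receptor chain fell.

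Clcf1, which encodes cardiotrophin-like cytokine factor, was the most abundant ligand transcript of the 4, per length, in all 6 libraries. It was at 28.83, 29.06 and 29.92 TPM in the IL group and at 30.84, 30.48 and 29.59 TPM with the inhibitor, so the groups overlapped. The log2FC was 0.079 ± 0.0563 (SE; edgeR adjusted p = 0.194). Its exons share 311 bases with another protein-coding gene model on the same strand, AC109138.7, so some of these reads may belong to that model. Il11, an inducer of fibroblast matrix production, had 3, 0 and 1 reads in IL and 7, 3 and 3 with the inhibitor. The ratio of its pooled reads, ILN over IL, was 3.09, with an exact 95% interval of 0.954 to 13 that includes no difference, and without the filter edgeR gave an adjusted p of 0.096.

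The stretches before the start sites of Il6 and Lif are shown because both hold an NF-κB and an AP-1 match. These ligands moved in opposite directions, and any part of the motifs in either change was not tested. RefSeq promoter windows (GRCm38.p6) were matched for 9 of the 10 members, 11 windows in all, and the 250 bases before each start were searched on both strands for the NF-κB consensus, for the AP-1 motif TGANTCA and for the STAT motif TTCNNNGAA. No match overlapped another. Among all 32851 promoter windows, 7.25% held the NF-κB consensus, 6.75% the AP-1 motif and 7.02% the STAT motif. Capitals mark the match, each sequence reads 5′ to 3′ on the strand of the gene, and the distance is from the first base of the match to the start.
Il6, NF-κB consensus 44 bases before the start, chr5:30013050-30013099, forward strand: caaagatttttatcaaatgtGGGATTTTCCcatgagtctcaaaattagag
Il6, AP-1 motif 249 bases before the start, chr5:30012864-30012891, forward strand: cTGAGTCActtttaaagaaaaaaaagaa
Lif, NF-κB consensus 178 bases before the start, chr11:4257370-4257419, forward strand: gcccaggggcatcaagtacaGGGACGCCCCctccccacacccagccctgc
Lif, AP-1 motif 228 bases before the start, chr11:4257320-4257366, forward strand: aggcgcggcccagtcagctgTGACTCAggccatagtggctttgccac
Il11 held 1 AP-1 match in 1 of its 2 windows. No match to the 3 motifs stood in the windows of Il6st, Lifr, Osmr or Stat3. A match is a description of the letters, not evidence of binding.

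Stat3 encodes the transcription factor on which these receptors converge. It was at 63.53, 62.22 and 63 TPM in the IL group and at 55.74, 54.37 and 50.75 TPM with ILN, without overlap. The difference was small, 12.8% lower by the fitted fold, or −0.20 ± 0.0326 (log2FC ± SE; edgeR adjusted p = 3.19e-07), and 36.6% of the tested genes had a more negative value. Exons of Stat3 overlap those of Stat5a on the opposite strand of chromosome 11 over 72 bases. Transcript level does not report the phosphorylation by which STAT3 is activated, which these data did not measure.

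Socs3, the STAT3-induced inhibitor that binds gp130, showed the largest change of the 8 tested members. It was at 47.5, 43.58 and 43.18 TPM in the IL group and at 9.51, 8.88 and 9.41 TPM with the inhibitor. The reads were 1264, 1121 and 1141 against 266, 251 and 270, and the libraries within a group lay close together. Socs3 was 4.71-fold lower, or −2.23 ± 0.0577 (log2FC ± SE; edgeR adjusted p = 1.15e-37), and 3.01% of tested genes fell further. Leaving out each library gave −2.26 to −2.18. Its promoter window was the only one of the 11 with a STAT match, which is shown for that reason.
Socs3, STAT motif 154 bases before the start, chr11:117969492-117969540, reverse strand: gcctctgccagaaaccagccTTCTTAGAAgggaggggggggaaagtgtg

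Csf1, which encodes the macrophage growth factor CSF-1, was at 177.11, 186.65 and 185.77 TPM in the IL group and at 163.52, 173.55 and 163.51 TPM with the inhibitor. The TPM values did not overlap, but the reads did, at 6868 to 7190 in IL and 6844 to 7468 with the inhibitor. The log2FC was −0.058 ± 0.029 (SE; edgeR adjusted p = 0.0634), about 3.93% lower, and was not called. An NF-κB match lay in its promoter window, shown beside those of Il6 and Lif as the third member with that motif.
Csf1, NF-κB consensus 154 bases before the start, chr3:107760594-107760643, reverse strand: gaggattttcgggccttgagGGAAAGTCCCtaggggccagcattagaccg
Its receptor gene Csf1r had 25 reads over the IL libraries and 17 over the others, and Il34, the other ligand of that receptor, had a log2FC of −0.18 (edgeR adjusted p = 0.14). Of 7 genes of colony-stimulating factors and their receptors 3 were tested. Csf2rb, the shared β chain of the GM-CSF receptor, fell from 2.28 ± 0.238 to 0.317 ± 0.119 TPM (mean ± SD of 3 libraries), a log2FC of −2.83 (edgeR adjusted p = 3.02e-19), while its partner Csf2ra rose by 0.53 on the log2 scale (edgeR adjusted p = 2.09e-06).

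The order of the levels per length differed between the groups. With IL-1β, mean levels ran from Il6st at 186.8 TPM and Csf1 at 183.2 TPM, whose libraries overlapped, through Stat3 at 62.9, Socs3 at 44.8 and Clcf1 at 29.3 TPM to Lifr at 3.67 and Il6 at 3.24 TPM, which also overlapped, and Lif at 0.67 TPM. With ILN, Csf1 at 166.9 TPM stood alone at the top, followed by Il6st at 70.5, Stat3 at 53.6, Clcf1 at 30.3 and Socs3 at 9.27 TPM. Lif at 1.56, Lifr at 1.43 and Il6 at 1.39 TPM could not be ordered, since their libraries overlapped. Socs3 had thus passed from above Clcf1 to below it, and Lif from below Il6 to the same range. The 3 receptor chains summed to 175.3 to 198.5 TPM in IL and to 70.6 to 74.7 TPM with the inhibitor, nearly all of it Il6st, whereas the 4 ligands summed to 32.4 to 33.8 TPM and 33.2 to 34.0 TPM, nearly all of it Clcf1.

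Of the JAK kinases and other STATs, 9 of 10 were listed and tested. By adjusted p 2 were higher and 5 lower, beside 40.2% and 39.8% of all tested genes, and none passed both cutoffs in edgeR, DESeq2 or limma-voom, while 7 had an unadjusted p below 0.05 in edgeR. Jak2, a kinase bound to gp130, rose from 26.9 ± 0.738 to 41.6 ± 1.19 TPM (mean ± SD of 3 libraries), a log2FC of 0.66 (edgeR adjusted p = 8.93e-23). Jak1, the main gp130 kinase, rose by 0.14 on the log2 scale. Stat5a fell by 0.81, Jak3 by 0.74 and Stat2 by 0.41 on the log2 scale. Lack of overlap between the groups was a condition for naming these genes. Exons of Jak3 and Stat5a overlap those of neighbouring genes, over 404 and 72 bases.

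Of 18 other regulators 17 were tested, with 7 higher and 9 lower by adjusted p, beside 40.2% and 39.8% of all tested genes. In edgeR only Cish passed both cutoffs, beside 16.6% of all tested genes. Cish, a STAT5-induced member of the SOCS family, had a log2FC of −1.04 (edgeR adjusted p = 4.17e-08). Adam10 and Adam17, proteases that shed the IL-6 receptor from the cell surface, fell by 0.84 and 0.59 on the log2 scale. Exons of Cish overlap those of opposite-strand gene models over 479 and 261 bases, and exons of Adam17 overlap such a model over 311 bases. Pias1, which encodes a STAT-binding SUMO ligase, fell by 0.66 and Socs5 by 0.60. The median of the 17 was −0.17.

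**Figure D3:**
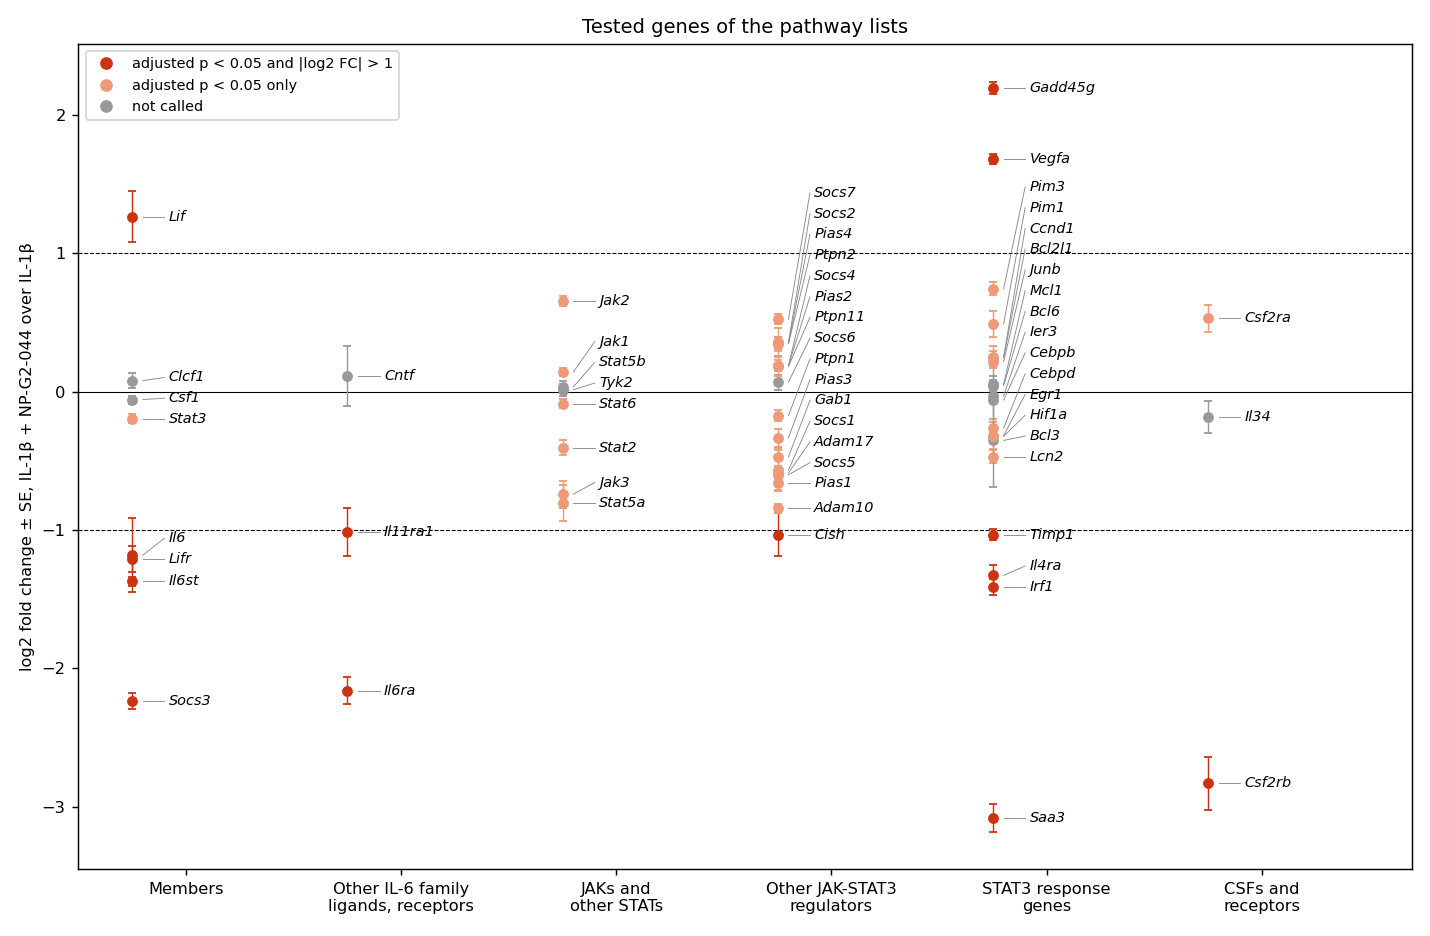
Log2 fold change, ILN over IL, with its standard error (y axis) for the tested members and the reported tested genes of the 5 other pathway lists (x axis). Dark red marks genes past both cutoffs, pale red an adjusted p below 0.05 only and grey neither. Il6ra and Il11ra1 lie below the lower dashed line, the JAKs and STATs shown lie within the dashed cutoffs, and STAT3 response genes spread from Saa3 at −3.08 to Gadd45g at 2.20.

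Of 24 listed genes known to respond to STAT3, 20 were tested, and 7 were higher and 8 lower by adjusted p, beside 40.2% and 39.8% of all tested genes, so these counts are near the background. Past both cutoffs 4 were lower, Saa3, Irf1, Il4ra and Timp1, and 2 were higher, Gadd45g and Vegfa, beside 10.1% and 6.48% of all tested genes, with a median of −0.046 over the 20. Saa3, an acute-phase protein gene, went from 360.96, 299.56 and 331.61 TPM to 40.44, 31.21 and 40.21 TPM, an 8.47-fold lower level (log2FC −3.08 ± 0.102 SE; edgeR adjusted p = 4.82e-14). Irf1, an interferon-response factor, was 2.66-fold lower and Il4ra, the IL-4 receptor α chain, 2.51-fold lower. Exons of Irf1 and Il4ra overlap those of opposite-strand gene models, over 135 and 571 bases. Gadd45g, a growth-arrest gene, went from 65.9, 60.44 and 62.42 TPM to 277.62, 271.69 and 300.86 TPM, 4.58-fold higher, and Vegfa, the endothelial growth factor, was 3.21-fold higher. Many of these genes also answer to NF-κB or to stress pathways, so the list is not a measure of STAT3 alone.

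**Figure D4:**
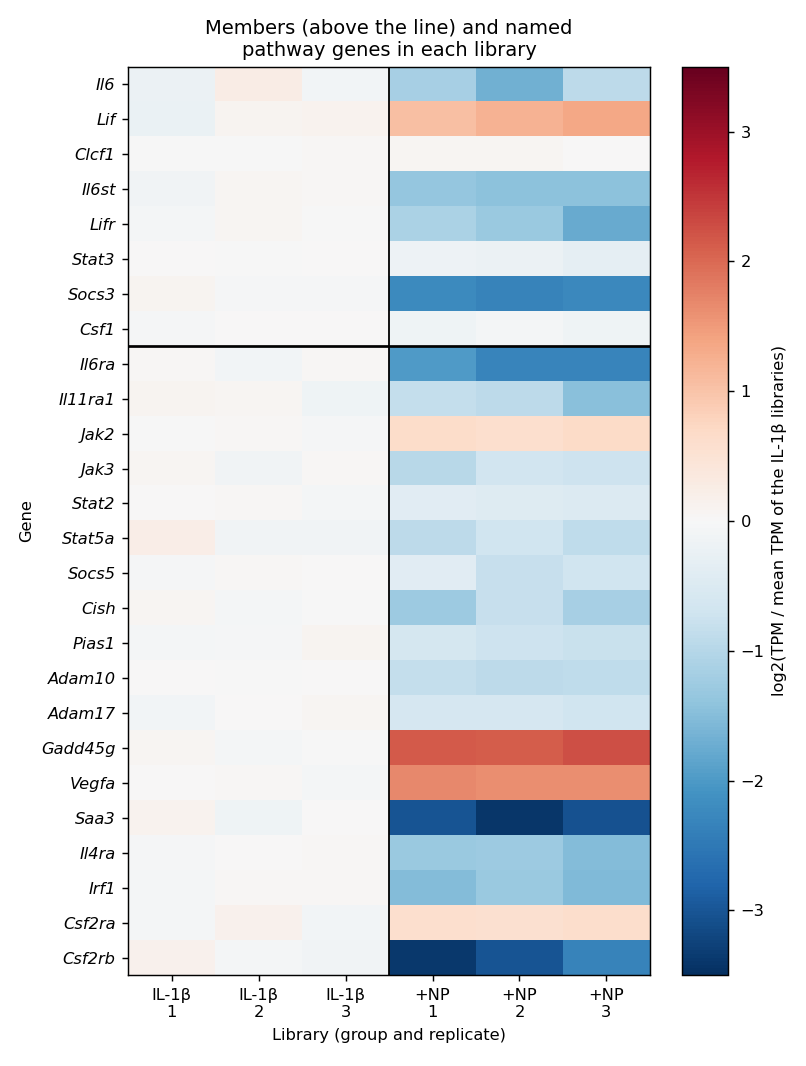
Level of each tested member (above the black line) and of reported pathway genes (below it) in the 6 libraries (columns). Colour is log2 of TPM over the mean of the IL libraries, blue lower and red higher. The pathway genes shown were chosen by an adjusted p below 0.05, no overlap between the groups and the largest changes. Every IL library is near 0, since each row is set to the IL mean. The 3 inhibitor-treated libraries agree in direction, which the choice of genes fixes below the line. Socs3, Il6ra, Saa3 and Csf2rb are the bluest rows and Gadd45g and Vegfa the reddest.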

How the data were processed

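RNA of 6 ATDC5 libraries was sequenced by BGI, per the methods. The labels name a TruSeq RNA kit, and the submitters' processing notes name cutadapt, HISAT2 2.0, StringTie and mm10, without roles. No source used here gives the annotation or the use of strand. The authors deposited estimated read counts (expected counts, 10.17% to 11.06% per library not whole), TPM and FPKM, the last of which entered no result, nor did their averages per group.

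Counts were rounded, filtered with filterByExpr (minimum count 10), TMM-normalized and tested with glmQLFit (robust) and glmQLFTest of edgeR 4.0.16 in R 4.3.3, without covariates. The fold cutoff is that of the study. Standard errors are the log2 fold change over the square root of F. The steps were tested on simulated counts. No library pair was within sampling noise (squared differences 1.54 to 2.39 times it within groups). The fitted coefficient of variation between libraries of a group, beyond counting error, was 2.33%. Standard errors and p-values cover counting error and this small spread only. Positions and overlaps came from GENCODE vM21 (GRCm38, the same assembly as mm10).

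Members and lists were chosen with earlier results of these data known. Named are the members, Fscn1, up to 5 genes per list with the largest change among those with an adjusted p below 0.05, no overlap and at least 1 TPM, and Jak1, Jak2, Il6ra, Il11ra1, Osm and Csf1r. Some genes that this rule names are not reported here. Other genes were named after their values were seen. Alternatives used edgeR, DESeq2 1.42.0 and limma 3.58.1.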

Additional observations from a re-analysis of the deposited data

How the results depend on the processing

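The fold changes of the 8 tested members kept their sign under the 16 alternatives run, or 15 for Il6 and Lif. Past both cutoffs stood 5 members (4 lower, 1 higher) in edgeR. With limma on log2(TPM + 1), which shrinks low levels, 2 remained (2 lower, 0 higher), since Il6 gave −0.83, Lif 0.61 and Lifr −0.95, and over all genes 1321 were called (516 higher, 805 lower) in place of 1987 (776 and 1211). With at least 10 CPM in at least 3 libraries, 3 members (0 higher) and 1164 genes (484 higher, 680 lower) were called, since Il6 and Lif were not tested. Against a fold change of 2, 3 members (0 higher) had an adjusted p below 0.05, and Il6 at −1.18 (edgeR adjusted p = 0.641) and Lif at 1.26 (edgeR adjusted p = 0.186) did not. Leaving out each library moved Il6 between −1.36 and −0.997, and the difference between the groups in the log2 ratio of Lifr to Il6st between −0.101 and 0.197, on both sides of 0. From CPM that difference was 0.157. The small Csf1 difference had an adjusted p below 0.05 in 6 of 16 alternatives and ranged from −0.13 to −0.032. Same-numbered libraries did not deviate together (correlations −0.0933, −0.0236 and 0.0259), and differently numbered ones ranged from −0.107 to 0.129. With 3 libraries in each group and little spread between them, these values cannot exclude pairing by number. With the replicate block, Il6 was at −1.18 and Lif, Il6st, Lifr and Socs3 were also called, 5 members in all. The few reads of Il6, Lif and Il11 limit their precision, and Osmr was below detection at this depth in 4 libraries.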
